A study of Homo sapiens with 59 samples.

Results

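The PAX genes encode transcription factors that share a paired DNA-binding domain. All 9 human members, PAX1 to PAX9, were taken from the 20033 protein-coding genes of GENCODE 44 by symbol. Each was followed at its promoter, the 3001 bp centred on the transcription start site (TSS), and over its whole window, the gene with 10 kb added on each side. The 9 windows ran from 27.9 kb (PAX4) to 221 kb (PAX5). Values came from all 51 libraries with a peak list among the 59 samples of the series.

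The libraries were ChIP-Rx-seq of NCI-H661 cells, a line established from a human large cell carcinoma of the lung. For the knockdown, the lines shDPPA2, shDPPA4 and shDPPA2+4 carried inducible hairpins against the embryonic chromatin proteins DPPA2, DPPA4 or both. They were sorted populations, not clones, and were kept for 7 days with doxycycline (DOX) at 2 µg/ml or with water (H2O) alone. The marks H3K4me3, H2AK119ub and H3K27me3 were profiled in 2 libraries per line and treatment, 12 per mark. In the inhibitor experiment, parental cells without hairpins received 10 µM of the p300/CBP inhibitor A-485 or DMSO for 1 day. H3K27ac and H2AK119ub had 2 libraries per treatment and H3K27me3 had 3, and SUZ12 was profiled in 1 DMSO library. No line with a non-targeting hairpin was analysed here, so an effect of the knockdown and one of doxycycline cannot be told apart. DPPA2 and DPPA4 protein or RNA is not measured by these files. The labels number the replicates, so p-values measure the spread between these libraries.

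H3K4me3 marks start sites of active genes and of genes held ready. H2AK119ub is laid down by Polycomb repressive complex 1 and H3K27me3 by Polycomb repressive complex 2, of which SUZ12 is a subunit. A promoter that carries H3K4me3 and H3K27me3 at once is called bivalent. H3K27ac is laid down by p300 and CBP at active promoters and enhancers. PAX genes pattern the embryo, and in most adult tissues they are silent Polycomb targets. They fall into subfamilies: PAX1 and PAX9 (skeleton, thymus, teeth), PAX2, PAX5 and PAX8 (kidney, B cells, thyroid), PAX3 and PAX7 (neural crest and muscle), and PAX4 and PAX6 (pancreas, eye and brain).

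Libraries differed in depth and in how much they called. In the 3 lines, H3K4me3 libraries had 8394879 to 19379794 reads inside filtered peaks, H2AK119ub libraries 1330926 to 4136521, and H3K27me3 libraries 1085365 to 10545826. A filtered peak had a log2 fold over input above 1 and an FDR under 0.05. In the parental cells, the H2AK119ub DMSO library labelled replicate 3 overlapped the other H2AK119ub libraries (median Jaccard index of covered bases 0.120) no more than those of H3K27me3 (0.124). Promoter calls and window fits that rest on it are therefore given with and without it. The own-mark index was 0.134 and 0.120 in A-485 replicates 3 and 4 and 0.098 in DMSO replicate 4, so 0.120 was not low among them. Their indices with H3K27me3 were 0.102, 0.039 and 0.026, in the same order. Both H3K27ac lists of replicate 4 held input counts equal to those used with the other treatment, at all 185 shared peaks of the DMSO list and all 15 of the A-485 list. H3K4me3 lay on the promoters of KRT18, VIM, NKX2-1, CHGA, SYP, INSM1, DPPA2 and DPPA4 in 12 of 12 libraries. It was in 0 of 12 on those of the keratin gene KRT8, the lung genes SFTPB, SFTPC and SCGB1A1, the blood genes PTPRC and CD3E and the endothelial genes PECAM1 and CDH5.

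The promoters differ in CpG content, which is known to go with H3K4me3 and Polycomb marks, so the 250 bases before the start are shown for 4 marked and 2 unmarked genes. PAX6, PAX5, PAX7 and PAX3 carried H3K4me3 in all 12 libraries, and PAX8 and PAX4 carried it in none. Sequences are from RefSeq (GRCh38.p14), 5′ to 3′ on the gene's strand, with each CG in capitals. The PAX6 entry lies before its upstream start, 6639 bp before the start used for the promoter window.
PAX6, chr11:31817962-31818211, minus strand: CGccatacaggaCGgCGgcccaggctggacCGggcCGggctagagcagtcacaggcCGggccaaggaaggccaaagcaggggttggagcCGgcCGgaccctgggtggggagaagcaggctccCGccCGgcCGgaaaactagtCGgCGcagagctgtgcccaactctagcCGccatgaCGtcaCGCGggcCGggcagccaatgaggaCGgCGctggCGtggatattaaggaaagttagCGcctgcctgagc
PAX5, chr9:37034269-37034518, minus strand: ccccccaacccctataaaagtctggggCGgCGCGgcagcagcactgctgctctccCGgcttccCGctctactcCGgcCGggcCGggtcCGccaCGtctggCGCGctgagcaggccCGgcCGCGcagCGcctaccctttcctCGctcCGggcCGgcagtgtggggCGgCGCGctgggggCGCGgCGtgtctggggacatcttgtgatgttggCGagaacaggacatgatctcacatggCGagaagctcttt
PAX7, chr1:18630596-18630845, plus strand: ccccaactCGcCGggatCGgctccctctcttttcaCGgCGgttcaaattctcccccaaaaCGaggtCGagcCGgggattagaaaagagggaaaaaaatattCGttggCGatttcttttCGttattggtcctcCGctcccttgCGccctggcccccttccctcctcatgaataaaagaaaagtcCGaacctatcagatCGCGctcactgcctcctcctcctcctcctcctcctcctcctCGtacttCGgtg
PAX3, chr2:222298999-222299248, minus strand: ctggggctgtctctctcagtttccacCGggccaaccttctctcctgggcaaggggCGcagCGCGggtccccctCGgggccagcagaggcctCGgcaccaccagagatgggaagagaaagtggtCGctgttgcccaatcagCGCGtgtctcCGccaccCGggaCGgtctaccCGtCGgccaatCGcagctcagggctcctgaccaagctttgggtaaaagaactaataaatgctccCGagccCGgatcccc
PAX8, chr2:113278922-113279171, minus strand: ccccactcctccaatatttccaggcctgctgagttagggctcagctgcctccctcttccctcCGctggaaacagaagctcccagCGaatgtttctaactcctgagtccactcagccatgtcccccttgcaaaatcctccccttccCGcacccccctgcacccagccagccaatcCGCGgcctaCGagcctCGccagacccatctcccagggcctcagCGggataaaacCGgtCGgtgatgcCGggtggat
PAX4, chr7:127618143-127618392, minus strand: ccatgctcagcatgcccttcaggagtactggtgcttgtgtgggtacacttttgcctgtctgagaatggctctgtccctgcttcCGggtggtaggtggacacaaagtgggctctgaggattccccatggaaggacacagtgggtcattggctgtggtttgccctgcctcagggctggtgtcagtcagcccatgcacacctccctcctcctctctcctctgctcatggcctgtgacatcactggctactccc

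In these 250 bases CG occurred 22 times for PAX6, 27 for PAX5, 18 for PAX7, 17 for PAX3, 11 for PAX8 and 1 time for PAX4, against a median of 11 over 35116 RefSeq promoters. The share of those promoters with at least as many CGs was 28.0%, 17.7%, 36.8%, 39.0%, 50.3% and 93.9%, in the same order. Of the genes not shown, PAX2 had 15 CGs before its own start and PAX9 had 11 (at least as many in 42.9% and 50.3% of promoters). PAX9 carried H3K4me3 in 12 of 12 libraries and had the same number as PAX8, which carried none, so the CG number in these 250 bases did not separate marked from unmarked members. PAX6 had 9 RefSeq entries, with 3 to 28 CGs. None of the 6 sequences overlaps an annotated exon. The PAX3 one lies in an intron of CCDC140 and the PAX6 one in introns of PAUPAR and ENSG00000285283, all on the opposite strand, and the other 4 lie outside GENCODE genes. RefSeq promoters were matched for 8 of the 9 genes, and PAX1 had none. Over the whole 3001 bp window, CpG numbers were 202 for PAX6, 198 for PAX2, 192 for PAX1, 174 for PAX7, 159 for PAX9, 135 for PAX8, 130 each for PAX5 and PAX3 and 18 for PAX4, with a median of 115 over all promoters. PAX1 and PAX8 lay above that median and had no H3K4me3.

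A promoter was counted as marked when at least 300 bp of it lay under filtered peaks. A region below is the merged span of the filtered peaks of 1 mark over its 12 libraries, kept where each library had a peak. The peaks of a single library can be much shorter than the region. H3K4me3 marked 6 of 9 PAX promoters in all 12 libraries, against 68.7% of all promoters, and 3 of 9 in none, against 28.3%. H2AK119ub marked 3 of 9 in all 12 (PAX2, PAX5 and PAX7), against 17.3% of all promoters, and each of the other 6 in 1 to 11 libraries. H3K27me3 marked 2 of 9 in all 12 (PAX7 and PAX4), against 7.50%, and 3 of 9 in none (PAX3, PAX6 and PAX8), against 77.4%. The map of promoter coverage shows all 51 libraries.

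**Figure D1:**
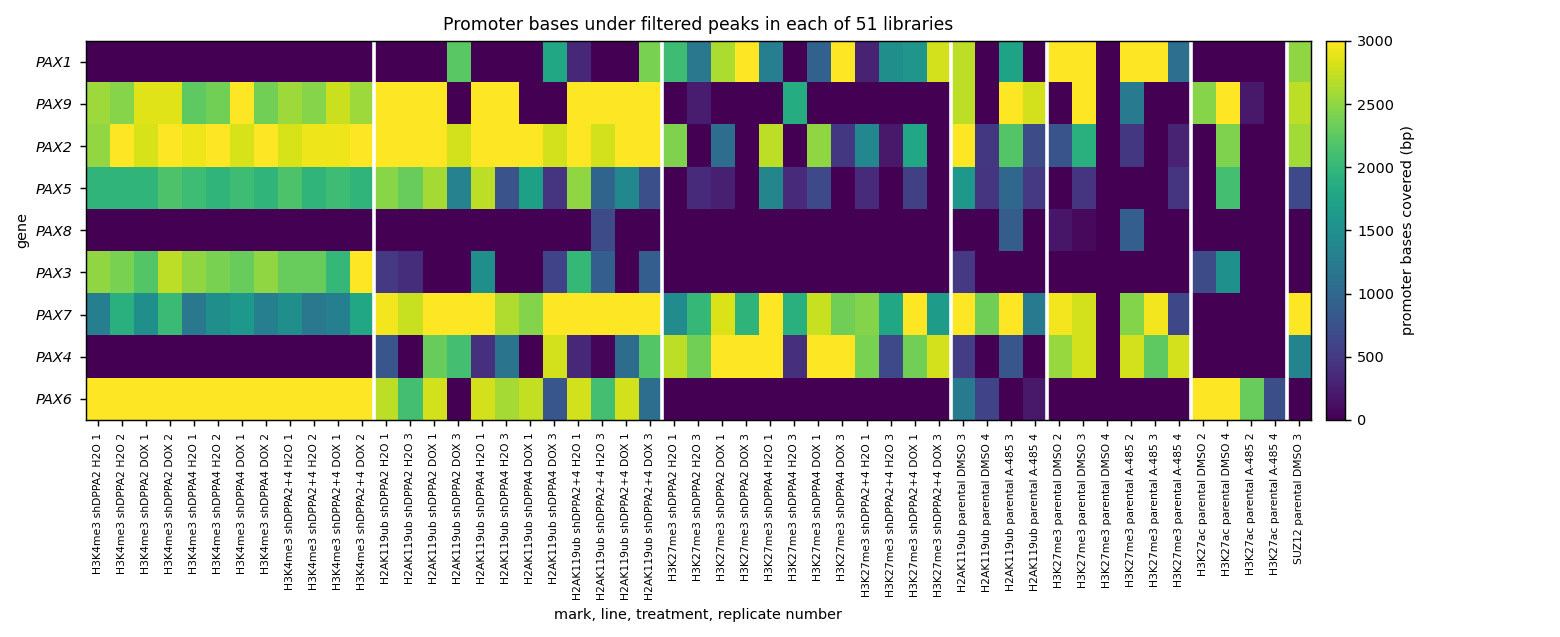
Colour gives the bases of each 3001 bp PAX promoter that lay under filtered peaks, with 1 row per gene in subfamily order and 1 column per library (mark, line, treatment, replicate number). White lines part the marks and experiments. PAX6 is filled for H3K4me3 and empty for H3K27me3 in every library, and PAX1, PAX8 and PAX4 are empty for H3K4me3.

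PAX1, a regulator of the vertebral column and thymus, had no H3K4me3 in any of 12 libraries, at the promoter or in the 32.8 kb window. H3K27me3 marked its promoter in 11 of 12 libraries, with 0 to 3001 bp and a median of 1532 bp. Its H3K27me3 reads fell in a region of 29.5 kb (chr20:21689501-21719000) that had a peak in all 12 libraries, with 46 to 1036 reads. Single deposited H3K27me3 peaks over the promoter, found in 16 of 18 libraries, were 0.3 to 17.8 kb wide (median 2.7 kb). In DMSO, SUZ12 covered 2501 bp of the promoter. PAX1 was thus a promoter of H3K27me3 without H3K4me3 in shDPPA2 and shDPPA2+4, where both H2O libraries were marked. In shDPPA2+4, H2O replicate 1 stood exactly at the 300 bp taken as marked. There, 1 H2O library also carried H2AK119ub, over 337 bp. In shDPPA4, H2O replicate 1 had 1301 bp and replicate 3 had 0.

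PAX9, needed for teeth, palate and thymus, carried H3K4me3. The mark covered 2260 to 3001 bp of its promoter in 12 of 12 libraries, within a region of 6.2 kb (chr14:36660201-36666400) that held 1664 to 3311 reads. A pair of other H3K4me3 regions upstream, at -15959 to -12460 bp and -6359 to -2760 bp from the TSS, also had peaks in all 12 libraries. The nearer one (chr14:36655501-36659100) covers an upstream annotated start of PAX9 at 36657568. It also covers the start of ENSG00000258661 on the other strand, and marks of the pair cannot be told apart. SUZ12 covered 2701 bp in DMSO. PAX9 differed from the other 8 in its input: reads of the input over its window were 3.24 times as dense as over all peaks of a list (median of 51 libraries, range 1.93 to 5.19), while the other medians, over the 24 to 49 libraries with peaks there, ran from 0.510 (PAX1) to 0.938 (PAX4). H2AK119ub lay there as a broad domain in every library, and H3K27me3 over the promoter in all 18, both with low folds over input that are taken up below with the treatments.

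PAX2, a regulator of kidney and optic nerve, carried H3K4me3 (2519 to 3001 bp) and H2AK119ub (2801 to 3001 bp) in 12 of 12 libraries. The merged H2AK119ub region of 26.2 kb (chr10:100727401-100753600) spanned the TSS. Single deposited peaks over the promoter were 0.7 to 14.1 kb wide in 16 libraries (median 4.05 kb). Of 5 annotated start sites, 3 lay under H2AK119ub in all 12 libraries of the 3 lines. H3K27me3 marked its promoter in 6 of 6 libraries of replicate 1 (1082 to 2701 bp) and in 1 of 6 of replicate 3 (482 bp), so the replicates did not overlap. The gene could therefore not be classed as bivalent or as H3K4me3-only in any line. SUZ12 covered 2582 bp.

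PAX5, which fixes the B cell identity, had H3K4me3 over 1968 to 2168 bp and H2AK119ub over 468 to 2701 bp of its promoter in 12 of 12 libraries. H3K27me3 reached 300 bp in 6 of 12 and never more than 1368 bp. Inside the gene each of the 3 marks had a region with peaks in 12 of 12 libraries, and these merged spans overlapped. They were chr9:37024501-37028100 for H3K27me3, chr9:37025101-37028700 for H3K4me3 and chr9:37021301-37034200 for H2AK119ub. Whether the peaks of single libraries overlapped between marks was not measured.

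PAX8, a thyroid and kidney gene, had no H3K4me3 anywhere in its 82.9 kb window in 12 of 12 libraries and no H3K27me3 at the promoter in those of the 3 lines. Inside the gene, H3K27me3 had peaks in all 12 libraries in 3 regions, the nearest 1721 to 9120 bp past the TSS (chr2:113269801-113277200, 7 to 265 reads). H2AK119ub had one at chr2:113269901-113275000 (17 to 191 reads). These regions overlap PAX8-AS1 on the other strand, and marks of the pair cannot be told apart.

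PAX3, of neural crest and muscle, had H3K4me3 over 2000 to 3001 bp of its promoter in 12 of 12 libraries and H3K27me3 over 0 bp in 12 of 12. H3K27me3 lay upstream instead, at chr2:222304501-222315900, -16902 to -5503 bp from the TSS and reaching the far end of CCDC140, and H2AK119ub at chr2:222303301-222314600, both in 12 of 12 libraries. At the promoter itself H2AK119ub was short, 0 to 2001 bp with a median of 449 bp.

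PAX7, its partner in muscle stem cells, was classed as bivalent in all 3 lines. The marks come from separate libraries of many cells, so whether both lay on the same chromatin fragments was not tested. H3K4me3 covered 1200 to 2046 bp, H2AK119ub 2446 to 3001 bp and H3K27me3 1446 to 3001 bp, each in 12 of 12 libraries. Bivalent promoters were 7.36 to 8.60% of all promoters in the 3 lines, and 88.2 to 93.6% of them carried H2AK119ub in both H2O libraries. The merged PAX7 H2AK119ub region of 28.1 kb (chr1:18627401-18655500) reached from -3445 to 24654 bp of the TSS. The merged H3K27me3 region ran from -1645 to 18354 bp. Single deposited promoter peaks were 0.8 to 22.5 kb wide for H2AK119ub (median 13.3 kb) and 1.1 to 17.3 kb for H3K27me3 (median 2.5 kb). SUZ12 covered all 3001 bp.

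PAX4, of the pancreatic beta cell, had no H3K4me3 in any library and H3K27me3 in 12 of 12 (400 to 3001 bp, median 2751 bp), in a region of 14.6 kb (chr7:127611401-127626000). Single deposited H3K27me3 peaks over its promoter were 0.2 to 8.7 kb wide (median 5 kb). PAX4 was the CpG-poorest of the 9. H2AK119ub was short and variable at 0 to 2801 bp. SUZ12 covered 1359 bp.

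PAX6, the regulator of eye, brain and pancreatic islets, had H3K4me3 over all 3001 bp in 12 of 12 libraries, in 1 region of 12.3 kb (chr11:31806901-31819200) that held 2297 to 5510 reads. It reached the upstream start shown above and the first part of PAUPAR and ENSG00000285283 on the other strand. H3K27me3 had no deposited peak in its whole 53.2 kb window in any of 18 libraries, with or without the filter, and SUZ12 had none. H2AK119ub marked the promoter in 11 of 12 libraries (median 2651 bp) and H3K27ac covered all 3001 bp in both DMSO libraries. Of 45 annotated start sites of its protein-coding transcripts, 25 lay under H3K4me3 in all 12 libraries and 17 in none.

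**Figure D2:**
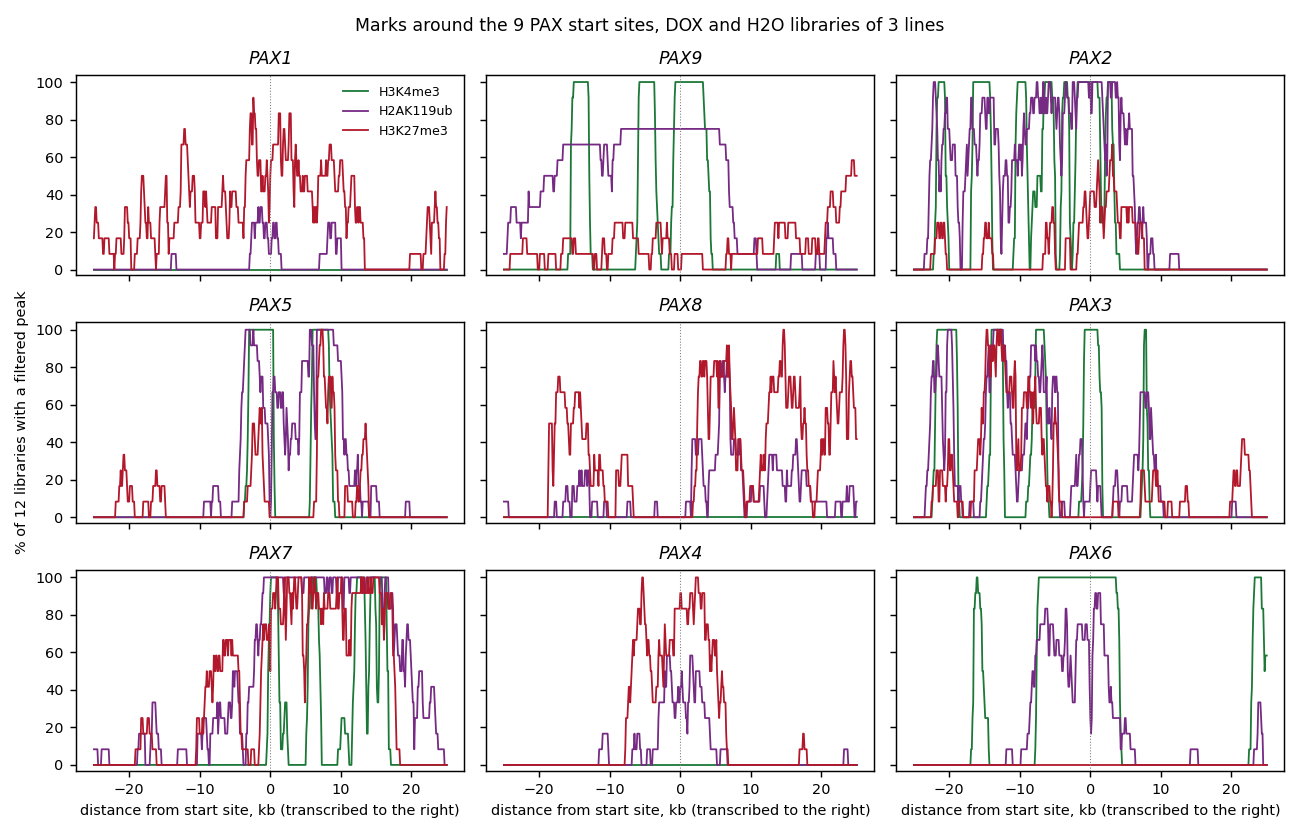
For each PAX gene, the line gives the percentage of the 12 knockdown-experiment libraries (6 DOX and 6 H2O) with a filtered peak at each distance from the TSS, in kb, with transcription to the right. PAX6 shows a plateau of H3K4me3 with H2AK119ub and no H3K27me3, PAX7 shows all 3 marks past the start, and PAX1, PAX8 and PAX4 show no H3K4me3.

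Over the 51 libraries the percentage of a gene's window covered served to find the gene most like a PAX gene, as a description with no test. The mean absolute differences were 1.17 percentage points between PAX5 and VIPR1, 1.30 between PAX3 and PINX1, 1.62 between PAX6 and SMIM40, 2.21 between PAX8 and SMIM35 and 2.72 between PAX4 and TNN. They were 3.22 between PAX2 and MT1A, 3.44 between PAX7 and RAB37 and 9.54 between PAX9 and MAP3K10. For these 8 genes the nearest PAX gene was farther, from 2.73 points (PAX5 and PAX3) to 16.4 points (PAX9 and PAX2). Windows differ in length and a long one is thinly covered, which enters these values. The other protein-coding genes that reach into PAX windows are SLC25A21 (PAX9), PSD4 (PAX8), FSCN3 (PAX4), and ELP4 and ENSG00000285283 (PAX6).

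No PAX gene was called as changed in H3K4me3 with doxycycline. For each gene window, reads in peaks went into edgeR's quasi-likelihood test, blocked on replicate number. A call needed an adjusted p below 0.05 and a change of 0.5 or more, up or down, in log2. The 6 PAX windows with enough H3K4me3 reads changed by -0.08 to 0.08 on the log2 scale over 3 lines, and 0 of them were called, against 0.241% of 16157 windows. Within lines, 0 of 6 were called as well, against 0.00619% in shDPPA2, 0.00619% in shDPPA4 and 0% in shDPPA2+4. At an unadjusted p under 0.05 there was 1 member over 3 lines and none within a line, and DESeq2 called none. That member was PAX9, with 2058, 2628, 2119, 2185, 2289 and 2474 reads in the H2O libraries of shDPPA2, shDPPA4 and shDPPA2+4 and 2533, 4222, 2773, 3161, 2148 and 3669 with DOX. Relative to the library totals this was a change of -0.08 ± 0.03 (SE, edgeR adjusted p = 0.085).

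H3K4me3 coverage of the promoter gave no call either. PAX promoters lost or gained H3K4me3 in 0 of 9 cases in each line, where lost means marked in both H2O libraries and in no DOX library, and gained the reverse. Over all promoters, 0.025%, 0.015% and 0.03% were lost and 0.0998%, 0.2% and 0.12% gained in shDPPA2, shDPPA4 and shDPPA2+4. PAX6 stayed at 3001 bp in 12 of 12 libraries. The PAX9 promoter was covered over 2443 bp ± 117 with H2O and 2734 bp ± 234 with DOX (SD, n = 6 each), longer in 5 of 6 pairs and equal in the other (exact sign-flip p = 0.0625, two-sided). The smallest p these 6 pairs allow is 0.0312, and 0 of 9 PAX promoters reached it, against 2.95% of the promoters that varied.

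H2AK119ub log2 changes spanned a wider range than those of H3K4me3. In the window fit over 3 lines the 9 genes ran from -2.90 (PAX9) to 4.49 (PAX1) on the log2 scale, with 7 above 0 and 2 below, beside a median of -0.21 over all windows. Fitted folds of PAX1, PAX9 and PAX6, with libraries at 0 reads, depend on the prior count of the fit and are no measure of size. edgeR called 0 of 9, against 0% of 15148 windows, with 2 members at an unadjusted p under 0.05 (PAX9 and PAX7), and DESeq2 called 1, PAX7, against 9.67% of the 14267 windows it tested. Within lines 0 of 9 were called, against 0.0132% in shDPPA2 and 0% in both shDPPA4 and shDPPA2+4. In shDPPA2 and in shDPPA4 1 member each was at an unadjusted p under 0.05, and DESeq2 called PAX8 in shDPPA2, against 5.5% of 13679 windows. Scaling the fit to all reads in peaks moved the median of all windows from -0.21 to -0.62. At the promoter, 0 of 9 reached the smallest exact p of the 6 pairs, against 2.62% of promoters that varied. No difference between lines was called for any of the 9 genes (adjusted p = 1 for each of the 3 line pairs).

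**Figure D3:**
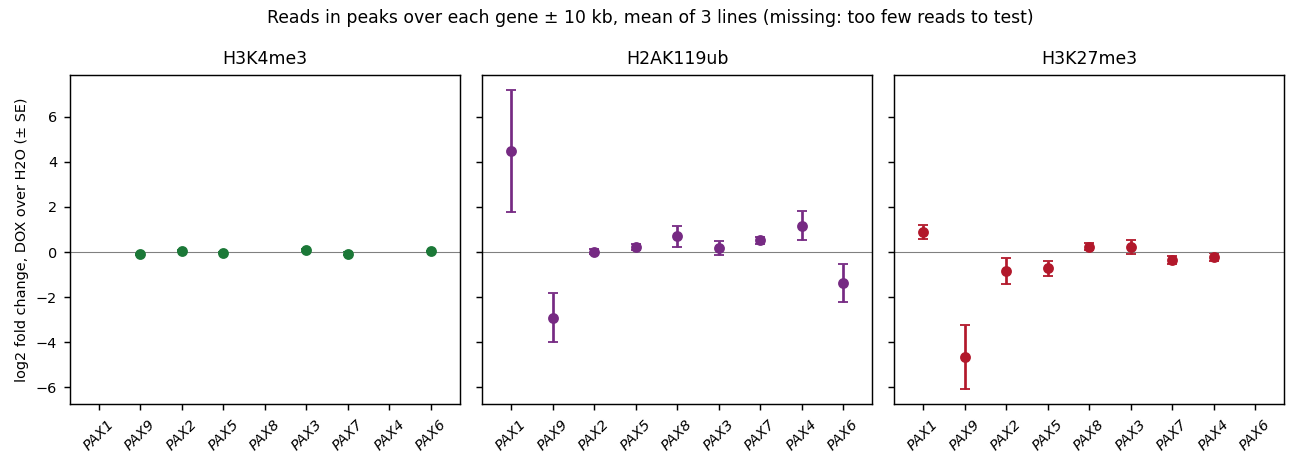
Points are edgeR log2 fold changes of DOX over H2O, averaged over 3 lines, in reads within filtered peaks over each PAX window, and bars are standard errors. H3K4me3 lies between -0.08 and 0.08, while PAX1 and PAX9, with 0 reads in some libraries, have the widest bars for H2AK119ub.

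At PAX9, H2AK119ub appeared to be lost in shDPPA4. Its promoter was covered over all 3001 bp in 6 of 6 H2O libraries. With DOX it had 3001 bp in shDPPA2 replicate 1 and in both shDPPA2+4 libraries, and 0 bp in shDPPA2 replicate 3 and both shDPPA4 libraries. It was the 1 PAX promoter of 9 called lost in that line, against 4.83% of all promoters and 11% of the 8765 marked in both H2O libraries. In the window, reads in filtered peaks were 1839 and 1200 with H2O and 0 and 18 with DOX, a fitted change of -7.37 ± 2.29 (edgeR adjusted p = 0.92). Reads in all deposited peaks, with no fold filter, were 2129 and 1388 with H2O and 1896 and 2363 with DOX, a change of 0.26 ± 0.29. The direction turned with the filter.

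The deposited lists place a broad H2AK119ub peak over this promoter in all 16 libraries of the mark, 3.7 to 37.1 kb wide. Its log2 fold over input was 1.75 and 1.69 in shDPPA4 H2O and 0.99 and 1.00 in shDPPA4 DOX, so both DOX values sat at the threshold of 1 from below. In shDPPA2 it was 1.05 and 1.57 with H2O and 1.14 and 0.76 with DOX, and in shDPPA2+4 it was 1.08 and 1.39 with H2O and 1.11 and 1.19 with DOX. The 2 groups overlapped over all lines and did not within shDPPA4. The shDPPA4 DOX peaks were 24.3 and 35.2 kb wide and the H2O ones 16.3 and 15.2 kb, and other wide peaks, of 26.2 to 37.1 kb, had folds of 0.76 to 1.19. In DMSO replicate 4 the fold was 1.00, also just below the threshold. The filter removed 40.7% of the H2AK119ub bases over the PAX9 window, against a median of 9.77% over 13007 genes, and the dense input at this locus stands beside each fold.

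**Figure D4:**
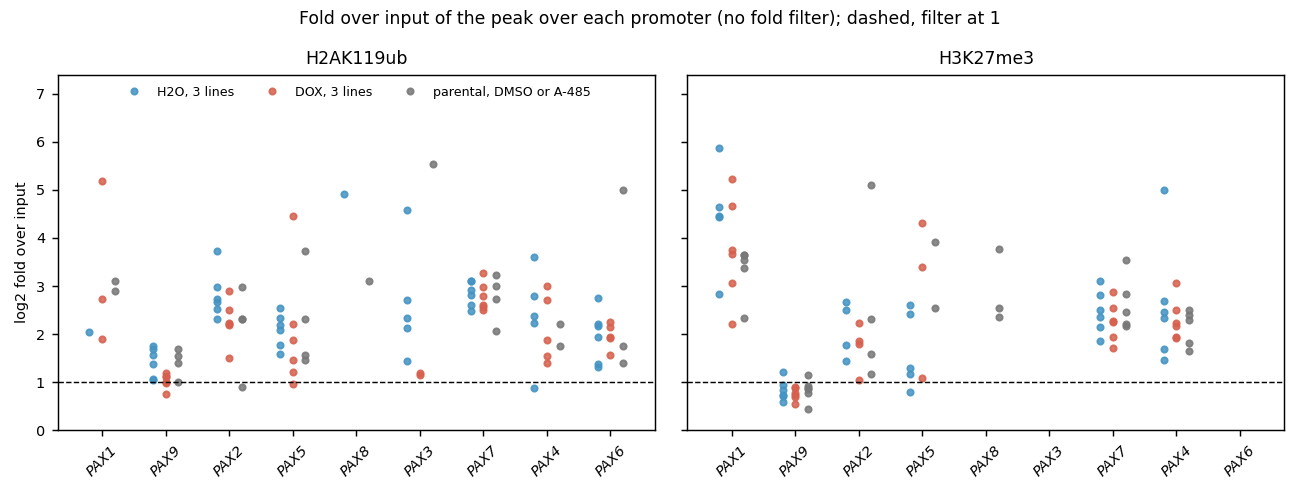
Each point is 1 library's log2 fold over input, as deposited, of the peak that overlaps a PAX promoter most, without the fold filter, for H2AK119ub and H3K27me3. Blue is H2O, red is DOX and grey is parental cells. PAX9 sits on the dashed filter line at 1 in both marks, with 4 of 16 H2AK119ub and 16 of 18 H3K27me3 libraries at or below it, whereas PAX7 lies above it throughout.

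PAX6 H2AK119ub was shorter with DOX in replicate 3 and close to the H2O values in replicate 1. In replicate 1 the promoter was covered over 2701, 2801 and 2801 bp with H2O and 2801, 2722 and 2801 bp with DOX in shDPPA2, shDPPA4 and shDPPA2+4. In replicate 3 it was covered over 2101, 2601 and 2101 bp with H2O and 0, 800 and 1079 bp with DOX, in the same order. The DOX values of replicate 3 were below all 9 others. Over 6 pairs the change of -817 bp had an exact sign-flip p of 0.188, and the window fit gave -1.37 ± 0.83 (edgeR adjusted p = 0.44). Without shDPPA2 DOX replicate 1, edgeR called PAX6 (-4.25, adjusted p = 0.020) and PAX9 (-7.07, adjusted p = 0.011) over 3 lines, 2 of 9 against 7.13% of 15037 windows, of which 137 were higher and 935 lower. In shDPPA2 it then called both as well, against 6.59% of windows, with the lone DOX library, at 0 reads for both genes, assumed to vary like the others. In replicate 3 the DOX libraries held 3653434 to 4136521 reads in peaks and the H2O libraries 1330926 to 1614678, and 60.1 to 76.3% of all promoters with the mark were covered over a shorter length with DOX. The part of that in the PAX6 values was not tested.

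PAX5 and PAX3 were shorter with DOX in 5 of 6 pairs each. PAX5 had 2468, 2300, 2701, 768, 2501 and 968 bp with H2O and 2601, 1333, 1701, 468, 1401 and 733 bp with DOX (exact sign-flip p = 0.0625). Its window reads changed by 0.22 ± 0.15 on the log2 scale (edgeR adjusted p = 0.47), the other way. PAX3 had 500, 398, 1500, 0, 2001 and 900 bp with H2O and 0, 0, 0, 598, 0 and 898 bp with DOX (exact p = 0.219), and was the 1 promoter of 9 called lost in shDPPA2, against 2.7% of all promoters and 6.34% of the 8538 marked in both H2O libraries. Over all promoters with the mark, 60.1 to 78.3% were likewise shorter with DOX in the 5 pairs in which PAX5 was shorter, and 71.3% were longer in shDPPA2 replicate 1, the pair in which PAX5 was longer. The part of that in the PAX5 and PAX3 values was not tested. The lost PAX3 stretches were 500 and 398 bp, near the 300 bp limit. In shDPPA2+4, 0 of 9 were lost, against 2.21%. Gains were 0 of 9 in each line, against 1.38%, 0.349% and 0.769%.

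PAX4 and PAX1, the H3K27me3-bearing promoters without H3K4me3, went the other way. PAX4 had 800, 0, 401, 1159, 342 and 42 bp with H2O and 2301, 2101, 0, 2801, 1059 and 2201 bp with DOX, longer in 5 of 6 pairs (exact p = 0.0625), and its window reads changed by 1.18 ± 0.66 (edgeR adjusted p = 0.41). PAX1 had 0 bp in 5 of 6 H2O libraries and 337 bp in the other. With DOX it had 2237, 1800 and 2401 bp in replicate 3 and 0 bp in replicate 1 of the 3 lines (exact p = 0.25). The PAX1 gains stood in the deeper replicate 3 DOX libraries. In parental cells, replicate 3 had 2701 bp in DMSO and 1737 bp in A-485, while replicate 4 had 0 bp in both. PAX4 was longer with DOX in replicate 1 of shDPPA2 and of shDPPA2+4 as well. The part of depth in the PAX1 and PAX4 values was not tested.

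**Figure D5:**
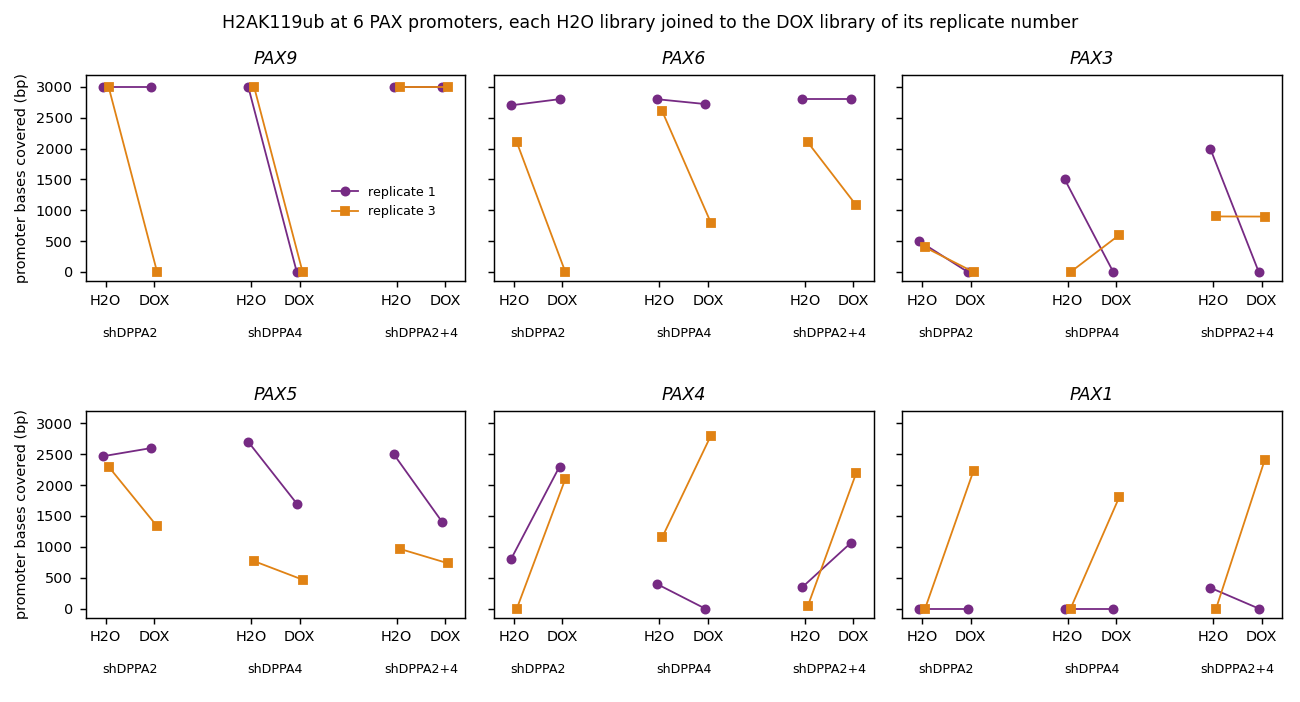
Bases of the 3001 bp promoter under filtered H2AK119ub peaks at 6 PAX genes, with each H2O library joined to the DOX library of its line and replicate number (circles, replicate 1; squares, replicate 3). PAX6 and PAX1 move in replicate 3 and hardly in replicate 1, and PAX9 drops from 3001 bp to 0 in 3 of 6 pairs.

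Of the promoters marked in all 12 libraries, PAX2 and PAX7 differed little in mean length. PAX2 had 2968 bp ± 82 with H2O and 2934 bp ± 103 with DOX, and PAX7 had 2890 bp ± 155 and 2909 bp ± 227 (SD, n = 6 each). PAX2 window reads changed by 0.02 ± 0.12. PAX7 window reads were 963, 987, 1140, 908, 1272 and 1042 with H2O and 1806, 2689, 920, 2247, 1247 and 2497 with DOX, a change of 0.53 ± 0.16 (edgeR adjusted p = 0.30, DESeq2 adjusted p = 0.011). With the reads in peaks as library size it was 0.10, and with the called length as offset it was -0.05. PAX8 had 51, 112, 71, 87, 173 and 120 window reads with H2O and 270, 881, 44, 476, 18 and 293 with DOX. In shDPPA2 its change was 2.08 ± 0.79 (edgeR adjusted p = 0.50, DESeq2 adjusted p = 0.040).

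H3K27me3 at the PAX genes was not called as changed by edgeR. Over 3 lines the 8 tested genes ran from -4.65 (PAX9) to 0.87 (PAX1), with 0 called, against 0.0325% of 6145 windows, 2 at an unadjusted p under 0.05 and 1, PAX9, called by DESeq2, against 8.17% of 5787 windows. Within lines 0 of 8 were called, against 0% in each of the 3, with 1, 0 and 1 members at an unadjusted p under 0.05 in shDPPA2, shDPPA4 and shDPPA2+4. DESeq2 called PAX9 in shDPPA2, against 1.12% of 6145 windows. Lost promoters were 0 of 9 in each line, against 0.464%, 0.145% and 0.23%, and gained ones 0 of 9, against 0.619%, 0.484% and 0.669%. At the smallest exact p were 0 of 9, against 3.34%.

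PAX1 promoter H3K27me3 was longer with DOX in 5 of 6 pairs, which did not pass the test. Promoter coverage was 2064, 1201, 1301, 0, 300 and 1500 bp with H2O and 2637, 3001, 937, 3001, 1564 and 2801 bp with DOX (exact p = 0.0625), and window reads changed by 0.87 ± 0.31 (edgeR adjusted p = 0.18). With the called length as offset the change was -0.68. In replicate 3 the DOX libraries held 5989134 to 10345651 reads in peaks, against 1085365 to 2227464 with H2O, and 62.9 to 86.2% of promoters with the mark were longer with DOX. The fit without replicate 1 also had another model, with line terms, 1 treatment term shared by the lines and no replicate block. Without replicate 1, edgeR called 4 PAX windows over 3 lines (PAX1 at 1.60, PAX9 at -3.93, and PAX5 and PAX7), against 21.1% of 5363 windows, 663 of them higher and 467 lower. Without shDPPA4 H2O replicate 1 it called 1 PAX window, PAX1 (1.07, adjusted p = 0.041), against 18% of 6060 windows, 737 higher and 353 lower. PAX4 was covered over 1920 bp ± 1105 with H2O and 2861 bp ± 258 with DOX (SD, n = 6 each, exact p = 0.125).

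H3K27me3 over PAX9 stood on the filter as H2AK119ub did. The deposited peak over its promoter had a log2 fold of 0.44 to 1.20 in 18 libraries, at or below 1 in 16 of them, and the filter removed 79.1% of the bases over its window, a share reached by 0.191% of 5238 genes. In the 3 lines its promoter was marked in 1 of 12 libraries, shDPPA4 H2O replicate 3 (1860 bp). The filtered fit gave -4.65 ± 1.43 and the fit without the fold filter -0.50 ± 0.21 (edgeR adjusted p = 0.22).

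In parental cells, the PAX promoters with H3K27ac in both DMSO libraries had less of it covered with A-485. PAX6 had 3001 and 3001 bp in DMSO and 2301 and 722 bp in A-485. PAX9 had 2460 and 3001 bp and then 200 and 0 bp, and PAX3 had 700 and 1503 bp and then 0 and 0 bp. PAX9 and PAX3 were thus lost, 2 of the 3 PAX promoters marked in both DMSO libraries, against 7.23% of all promoters and 12.4% of the 11653 marked in both. With no fold filter PAX3 alone was lost, against 7.15% of all promoters. Window reads were 839 and 931 in DMSO and 255 and 120 in A-485 at PAX6, and 149 and 1182 and then 58 and 53 at PAX9. At PAX2, PAX5, PAX8, PAX7 and PAX4 the windows held 70 to 734 reads in DMSO replicate 4 and 0 in DMSO replicate 2, and 0 to 15 in A-485. PAX1 was at 0 in all 4 libraries. DMSO replicate 4, the DMSO library with those reads, overlapped the other H3K27ac libraries at a median Jaccard index of 0.085. With the H2AK119ub libraries its index was 0.082. The remaining H3K27ac libraries overlapped their own mark at 0.252 to 0.253.

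Depth was lower with A-485 too, and its part in these values was not tested. H3K27ac reads inside peaks were 2709073 and 5647079 in DMSO and 780375 and 603895 in A-485, and DMSO replicate 4 had 112108 filtered peaks against 33889 in replicate 2. Set against these totals, PAX6 changed by 0.19 ± 0.41 and PAX9 by -0.40 ± 0.58 in edgeR, beside a median of -0.47 over all windows. edgeR called 0 of 8 tested, against 0% of 16001 windows, with none at an unadjusted p under 0.05 and none called by DESeq2. Scaling removes a loss that all windows share. The deposited PAX9 H3K27ac peak had a log2 fold of 1.08 and 1.05 in DMSO, again at the filter, and with no fold filter PAX9 changed by 0.89. Such a peak lay over the promoter in all 4 libraries, with folds from 0.34 to 5.21. The folds of replicate 4 rest on input counts equal to those used with the other treatment.

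H2AK119ub in parental cells was lost at 1 of the 4 PAX promoters marked in both DMSO libraries, PAX6, with 1222 and 600 bp in DMSO and 0 and 200 bp in A-485, against 1.31% of all promoters and 8.15% of the 3227 marked in both. Without replicate 3, whose DMSO library overlapped the H2AK119ub libraries no more than the H3K27me3 ones, 1 library per treatment was left. PAX6, with 600 and 200 bp, was lost, against 7.68% of all promoters and 39.9% of the 3854 marked in DMSO, and PAX9 was gained, against 10.9% of all promoters. Without replicate 4, PAX3 and PAX6 were lost, against 10.1%, and PAX8 was gained, against 4.45%. Above a log2 fold of 2 the lost promoter was PAX5 and not PAX6, against 0.889%, and with no fold filter it was PAX6, against 1.43%. With marked set at 1 bp or 1000 bp, or with 500 bp on each side of the TSS, 0 PAX promoters were lost. Gained were 0 of 9, against 0.664%. The window fits called 0 of 9 for H2AK119ub, against 0% of 10437 windows, and 0 of 8 for H3K27me3, against 0% of 5244, with no member at an unadjusted p under 0.05 and none called by DESeq2. Without DMSO replicate 3 the H2AK119ub fit again called 0 of 9, against 0 of 9284 windows, with PAX9 and PAX4 at an unadjusted p under 0.05 (edgeR adjusted p = 0.43 for both). PAX7 H2AK119ub changed by 0.14 ± 0.25 with that library and by 0.35 ± 0.43 without it, and PAX7 H3K27me3 by -0.03 ± 0.18. The H2AK119ub fit without DMSO replicate 3 also had no replicate block, so the model changed along with the libraries. H2AK119ub reads inside peaks were 2133807 and 390762 in DMSO and 1471580 and 541369 in A-485. For H3K27me3 they were 12005354, 9908533 and 498618 in DMSO and 4986389, 5979141 and 1516111 in A-485. H3K27me3 DMSO replicate 4 overlapped its own mark at a median Jaccard index of 0.068, against 0.180 to 0.472 for the other H3K27me3 libraries. The part of depth in these parental values was not tested.

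A list held 48 genes that work with or under PAX proteins. Among them were cofactors such as EYA1, DACH1, TLE1 and PAXIP1, and targets such as MITF, MYOD1, RET, GCG and TG. The list gave no call in any of the 15 comparisons, with 24 to 45 of its genes tested. Over all windows edgeR called 0 to 0.241% in these comparisons, so the absence of calls says little about a list of this size. Over 3 lines the median log2 change of those tested was -0.13 for H2AK119ub, 0.04 for H3K4me3 and -0.29 for H3K27me3, beside -0.21, 0.00 and 0.06 over all windows. H3K4me3 marked 35 of the 48 promoters in all 12 libraries, H2AK119ub 21 and H3K27me3 10, or 72.9%, 43.8% and 20.8%, beside 68.7%, 17.3% and 7.50% of all promoters.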

How the data were processed

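ChIP-Rx-seq of 51 libraries was used. The submitters' processing notes name hg38, BWA 0.7.13, Trim Galore 0.6.6, Picard 2.6.0, deepTools 3.5.0 and SAMtools 1.9. Peaks were called with EPIC2 by the authors in each library against an input. For every peak the authors deposited read counts of ChIP and input as whole numbers, a log2 fold over input, and an FDR (q-value). The SUZ12 list has the same columns, although the study names another caller for it. The ENCODE blacklist was not applied here. Spike-in reads and the 8 input samples were not used here, so changes common to all windows are scaled away.

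Peaks with a log2 fold above 1 and FDR under 0.05 were kept, the study's thresholds. Reads of a peak were spread evenly along it. TSSs are MANE Select (GENCODE 44). Windows with at least 10 reads on average entered edgeR 4.0.16 (TMM scaling, quasi-likelihood test, Benjamini-Hochberg over all windows). The replicate number was a block, because the study ran its replicates as full batches. As a pairing check, same-numbered libraries were compared by how they departed from group means, with correlations of 0.172 to 0.590 (H2AK119ub), 0.0571 to 0.390 (H3K4me3) and -0.0185 to 0.484 (H3K27me3). DESeq2 1.42.0 was an alternative. Promoter lengths were compared by exact sign-flip tests over 6 pairs. The fits were also run on simulated counts with 1 fixed spread, without peak calling or the fold filter. How they treat windows that drop to 0 at the filter was therefore not tested. Named genes are all 9 members, the gene of nearest coverage to each (over 1 Mb away), not reported here for PAX1, and genes overlapping their windows. The members and lists were chosen with earlier results of these data known. Sequence capitals mark CG. Counting intervals were not computed, since reads of a peak are not independent molecules.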

Additional observations from a re-analysis of the deposited data

Results flagged for a closer look

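The PAX9 promoter lay under an H2AK119ub peak at or below the log2 fold of 1 in 4 of 16 libraries and under such an H3K27me3 peak in 16 of 18. These peaks were deposited but are left out by the filter, and in this sense they are signal outside the main measurement. No input or control library has a peak list to set them against. The log2 folds were 0.76 to 1.00 in the 4 H2AK119ub libraries. Among the other 8 PAX genes, 3 H2AK119ub promoter peaks and 1 of H3K27me3 lay at or below 1.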

How the results depend on the processing

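No PAX window was called in any of the 15 edgeR comparisons. DESeq2 called 1 in each of 4 (H2AK119ub over 3 lines, PAX7, and in shDPPA2, PAX8; H3K27me3 over 3 lines and in shDPPA2, PAX9). Over all windows DESeq2 and edgeR called 1379 and 0 for H2AK119ub, 473 and 2 for H3K27me3, and 24 and 39 for H3K4me3 over 3 lines, and 37 and 0 for H3K27ac. Without the replicate block 0 PAX windows were called and the H3K4me3 calls over 3 lines went from 39 to 0 of all windows, with PAX6 at -0.75 and PAX7 at 0.61 for H2AK119ub. Leaving out 1 library or replicate gave 0 to 2 PAX windows for H2AK119ub over 3 lines and in shDPPA2 (2 without shDPPA2 DOX replicate 1, against 7.13% and 6.59% of all windows), and 0 to 4 for H3K27me3 over 3 lines (4 without replicate 1, against 21.1%). With 3 pairs, where the smallest exact p is 0.25, H2AK119ub had 4 PAX promoters at that p without replicate 1 and 1 without replicate 3, against 36.1% and 9.67% of the promoters that varied. H3K4me3 had 1 without replicate 1 and 2 without replicate 2, against 21.1% and 16.5%, and H3K27me3 had 2 without replicate 1 and 0 without replicate 3, against 45.4% and 11.2%.

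Lost H2AK119ub promoters in shDPPA2 were 0 at 1000 bp and 0 with a window of 500 bp on each side, and gained ones 1 at 1000 bp (PAX4). In shDPPA4 0 were lost with no fold filter. In shDPPA2+4 1 was lost above a log2 fold of 2 (PAX6) and 1 in the 500 bp window (PAX3), and 1 gained at 1000 bp and in the 500 bp window (PAX4). For H3K27me3 1 was lost in shDPPA2 with no fold filter (PAX5) and 1 gained in shDPPA2+4 above a log2 fold of 2 (PAX4). For H3K27ac 1 was lost with no fold filter, above a log2 fold of 2, or at 1 bp (PAX3), and 1 at 1000 bp (PAX9). Leaving out a replicate gave 1 to 3 H2AK119ub losses in shDPPA2 and in shDPPA4 and 1 to 2 in shDPPA2+4, with 0 to 2 gains in each line. Beside these losses, 6.79 to 25.5% of all promoters were lost in shDPPA2, 9.96 to 11.9% in shDPPA2+4, and 15.7 to 17.2% in shDPPA4. Without replicate 1, where the PAX gains stood, 4.13%, 5.27% and 6.64% were gained. Leaving out a replicate gave 0 to 1 H3K27me3 losses in shDPPA2, 0 to 2 losses and 0 to 2 gains in shDPPA4, and 2 to 4 H3K27ac losses. Of all promoters, 2.57% lost H3K27me3 in shDPPA2 and 1.21% in shDPPA4 without replicate 1, where 5.63% gained it in shDPPA4, and 35% lost H3K27ac without replicate 2 (4 PAX) and 9.59% without replicate 4 (2 PAX).

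Directions turned as follows, and the cause was not tested. With no fold filter PAX9 H2AK119ub was 0.11 over 3 lines and 0.26 in shDPPA4, PAX9 H3K27ac 0.89, and PAX5 coverage 10.7 bp. With the called length as offset PAX7 H2AK119ub was -0.048, PAX8 in shDPPA2 -0.21, PAX1 H3K27me3 -0.68 and PAX9 H3K27ac 1.40. Above a log2 fold of 2 PAX4 H2AK119ub was -0.28 and its coverage -117 bp. PAX6 H3K27ac was -0.021 in the promoter window. Leaving out 1 library, PAX6 H3K27ac ran from -0.18 (without A-485 replicate 2) to 0.48 and PAX9 H3K27ac from -1.55 to 0.69 (without DMSO replicate 4, where PAX6 was -0.11). Leaving out replicate 3 or replicate 1, PAX4 H2AK119ub was -0.060 and 2.39, and the coverage change was 7 and -1641 bp for PAX6, -112 and 2146 bp for PAX1, and -1334 and 66 bp for PAX3. Fits of 1 line or of 4 inhibitor libraries without a replicate number were not run, since no residual degrees of freedom remain.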
